A study of Homo sapiens with 24 samples.

Results

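Transcripts of 58 genes of the cell cycle and of DNA replication were followed through the m6A peak lists of 6 human cell populations. The genes were chosen by symbol, and their peaks were those whose deposited gene assignment held the GENCODE identifier of 1 of these genes. All 58 symbols matched 1 gene each, and the genes held 843 of 228472 peaks. Of the 58 genes, 56 had a peak in at least 1 list, 30 in each of the 4 differentiation stages and 27 in each of the 6 lists, out of 27200 genes with a peak in the whole series. These are 96.6%, 51.7% and 46.6% of the 58 genes, against 81.8%, 41.2% and 37.7% of all protein-coding genes.

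The study differentiated MEL1 human embryonic stem cells, an established line carrying a green fluorescent reporter in the insulin gene, stepwise into islet-like organoids. In m6A-seq, RNA fragments bound by an antibody against N6-methyladenosine (IP) are read beside the unselected fragments (input), so that methylated stretches stand out as peaks. The first batch held the pluripotent cells (hPSC), the endoderm (DE) and pancreatic progenitors (PP) made from them, and the organoids (hILO), profiled from mRNA with a SYSY antibody. The second batch held wild-type progenitors (WT PP) and progenitors lacking ALKBH5, the enzyme that removes m6A (A5-KO PP), profiled from total RNA with a Millipore antibody. The ALKBH5 lines were picked after CRISPR-Cpf1 cutting in the first exon. The pluripotent cells were grown on mouse feeder cells, and all populations are cultured mixtures in which fewer cells of a type and less RNA per cell cannot be told apart. There were 24 libraries, 2 of IP and 2 of input for every population, but only 1 list of peaks called on each set of 4, so no value below has a replicate check and no test between populations was made. Antibody, RNA and library kit differ between the batches, so peaks were paired for differences only within a batch.

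The cell cycle is driven by cyclins that activate cyclin-dependent kinases, held back by CDK inhibitors and by the RB family, which restrains the E2F transcription factors. Origins of replication are licensed by CDC6, CDT1 and the MCM helicase, and mitosis is run by the Aurora and Polo kinases, the spindle checkpoint and the centromere and kinesin proteins. m6A is a modification of adenosine within DRACH motifs (where D stands for any base but C, R for a purine and H for any base but G), it is rich near stop codons and in long internal exons, and it influences the stability of mRNA.

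The labels fitted the lists in the main. All 5 pluripotency markers had a peak in hPSC, all 6 endoderm markers in DE and 6 of 7 progenitor markers in PP. All 5 pluripotency markers also had a peak in DE, and 6 of 7 progenitor markers in hILO. The presence of a peak thus did not separate these neighbouring stages. In hILO, 5 of 6 endocrine markers had a peak, and so did all 4 liver markers, whose input reads in peaks summed to 45382. The sum was 0 in hPSC and PP, 567 in DE, and 15678 and 338 in the wild-type and knockout progenitors. Of these last 2 sums, TTR alone gave 15675 and 250 reads, so they rested on 1 gene. APOA1 had 3 reads in WT PP and no peak in A5-KO PP. AFP went the other way, with 0 and 88, and ALB had no peak in either. The targeted gene ALKBH5 had 289 input reads in 4 peaks of WT PP and 1 input read in 5 peaks of A5-KO PP. Input reads in all peaks ranged from 6987612 in PP to 28463998 in hILO. The median peak of the 58 genes held between 89.0 (DE) and 229 (hILO) input reads, so a single peak's log2 enrichment carried a counting error of 0.11 to 0.19 in the median. Counting errors cover the reads only.

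Some stretches of these transcripts were covered by a peak in all 6 lists, in coding sequence and in 3′UTRs, and examples of both are shown because the values below refer back to them. One coding stretch is shown for each of 4 genes, read 5′ to 3′ on the transcript strand from the GRCh38 reference genome, with DRACH motifs in capitals. CENPF is a kinetochore protein, MKI67 encodes the proliferation antigen Ki-67, PLK4 starts centriole duplication and MDM2 is the ubiquitin ligase that degrades p53.
CENPF, chr1:214640319-214640568, plus strand, exon 12: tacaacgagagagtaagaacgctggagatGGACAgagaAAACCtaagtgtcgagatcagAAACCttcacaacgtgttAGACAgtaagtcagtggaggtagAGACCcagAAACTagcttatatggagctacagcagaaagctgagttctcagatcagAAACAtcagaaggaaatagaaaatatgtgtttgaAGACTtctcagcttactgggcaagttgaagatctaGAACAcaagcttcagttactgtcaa
MKI67, chr10:128104938-128105187, minus strand, exon 13: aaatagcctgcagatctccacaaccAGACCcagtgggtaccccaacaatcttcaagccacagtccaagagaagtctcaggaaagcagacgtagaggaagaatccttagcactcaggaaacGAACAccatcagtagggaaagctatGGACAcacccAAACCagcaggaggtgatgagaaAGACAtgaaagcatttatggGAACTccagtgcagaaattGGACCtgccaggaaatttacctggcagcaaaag
PLK4, chr4:127886034-127886308, plus strand, exon 5: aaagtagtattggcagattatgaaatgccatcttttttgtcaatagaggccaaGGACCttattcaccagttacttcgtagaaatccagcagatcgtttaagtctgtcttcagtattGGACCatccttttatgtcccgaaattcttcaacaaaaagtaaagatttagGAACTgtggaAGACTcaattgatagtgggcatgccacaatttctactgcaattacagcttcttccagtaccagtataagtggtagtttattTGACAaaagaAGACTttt
MDM2, chr12:68839439-68839738, plus strand, exon 11: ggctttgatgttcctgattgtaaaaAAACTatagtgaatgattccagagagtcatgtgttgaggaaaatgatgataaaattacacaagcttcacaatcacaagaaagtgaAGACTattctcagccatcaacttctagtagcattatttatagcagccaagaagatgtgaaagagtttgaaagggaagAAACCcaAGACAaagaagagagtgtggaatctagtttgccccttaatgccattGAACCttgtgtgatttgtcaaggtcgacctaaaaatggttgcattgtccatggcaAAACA

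The CENPF stretch held 9 DRACH motifs, the MKI67 stretch 7 and the PLK4 and MDM2 stretches 6 each. At the CENPF stretch the log2 enrichment of the covering peak was 2.17, 2.35, 1.88 and 2.14 along the stages hPSC, DE, PP and hILO, and 4.23 and 2.79 in WT PP and A5-KO PP, on 278, 36, 363, 92, 705 and 151 input reads. At the MKI67 stretch the log2 enrichment was 1.84, 1.93, 1.28, 1.72, 2.61 and 5.02 in the same order, on 482, 243, 344, 140, 212 and 10 input reads. At the MDM2 stretch it was 2.04, 2.07, 3.19, 2.51, 5.11 and 5.29. At the PLK4 stretch it was 2.38, 2.77, 2.03 and 1.94 along the stages, and 1.71 and 5.16 in WT PP and A5-KO PP on 24 and 8 input reads. In the 4 stages these stretches thus lay between 1.28 for MKI67 in PP and 3.19 for MDM2 in PP.

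Behind the stop codon, short windows around a GGAC motif are shown for 6 genes whose 3′UTR was covered in all 6 lists. CCND2 is a D-type cyclin, CDK2 the kinase of S-phase entry, CDC25A the phosphatase that activates CDKs, and MCM5 a subunit of the MCM helicase. Capitals again mark the DRACH motif.
CCND2, chr12:4300471-4300499, plus strand, exon 5: tgaaataaggagGGACAtgatggggaagg
CDK2, chr12:55971693-55971721, plus strand, exon 7: cttgggctatttGGACTcaggtgggccct
CDC25A, chr3:48158812-48158840, minus strand, exon 15: agagggggcctgGGACTtccatgccttaa
CDT1, chr16:88809169-88809197, plus strand, exon 10: agcctccagaagGGACTggcctctgccca
MCM5, chr22:35424323-35424351, plus strand, exon 17: acaatgttgctgGGACCtctgcctcccca
MDM2, chr12:68842241-68842269, plus strand, exon 11: attcaagaaaaaGGACTacggaaagttca

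In the CDK2 3′UTR the log2 enrichment was 1.56, 1.28, 1.25 and 1.06 along the stages, on 241, 395, 508 and 584 input reads, and 3.77 and 4.02 in WT PP and A5-KO PP, on 36 and 89. In the MDM2 3′UTR it was 3.24, 3.19, 2.41 and 2.36 across the stages, on 270, 872, 66 and 121 input reads, and 3.95 and 4.98 in WT PP and A5-KO PP. The MDM2 3′UTR peak was thus the highest of the 58 genes in hPSC and in DE, and every MDM2 peak was also assigned to an overlapping gene. In the CDC25A 3′UTR the log2 enrichment was 1.90, 1.91, 1.25 and 0.95 across the stages, the hILO peak holding 2148 input reads.

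Of the 58 genes, hPSC had a peak on 48, DE on 41, PP on 45 and hILO on 34, while WT PP had a peak on 49 and A5-KO PP on 47. Among 20046 protein-coding genes the shares with a peak were, in the same order, 60.2%, 57.0%, 52.2%, 57.7%, 62.8% and 69.7%. At the deposited threshold the 58 genes were thus close to the background in hILO and above it in the other lists. That hILO had the fewest of the 4 stages rested on the threshold. With p below 1e-05 the counts were 41, 29, 37 and 34 along the stages, lowest in DE, against 49.9%, 47.2%, 42.6% and 56.3% of protein-coding genes, so DE too was near its background. With at least 50 input reads in the peak they were 41, 35, 31 and 34, lowest in PP, against 47.4%, 48.7%, 43.2% and 56.0% of protein-coding genes. Raising the IP/input ratio to at least 3 left 19 genes in hILO against 35, 34 and 32 in hPSC, DE and PP, against 39.5%, 49.4%, 45.2% and 39.1% of protein-coding genes, which put hILO below its background. The 54 other genes of the same pathways, listed apart from the 58, had a peak on 42 in each of hPSC, DE and PP, on 36 in hILO, and on 46 and 44 in WT PP and A5-KO PP.

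**Figure D1:**
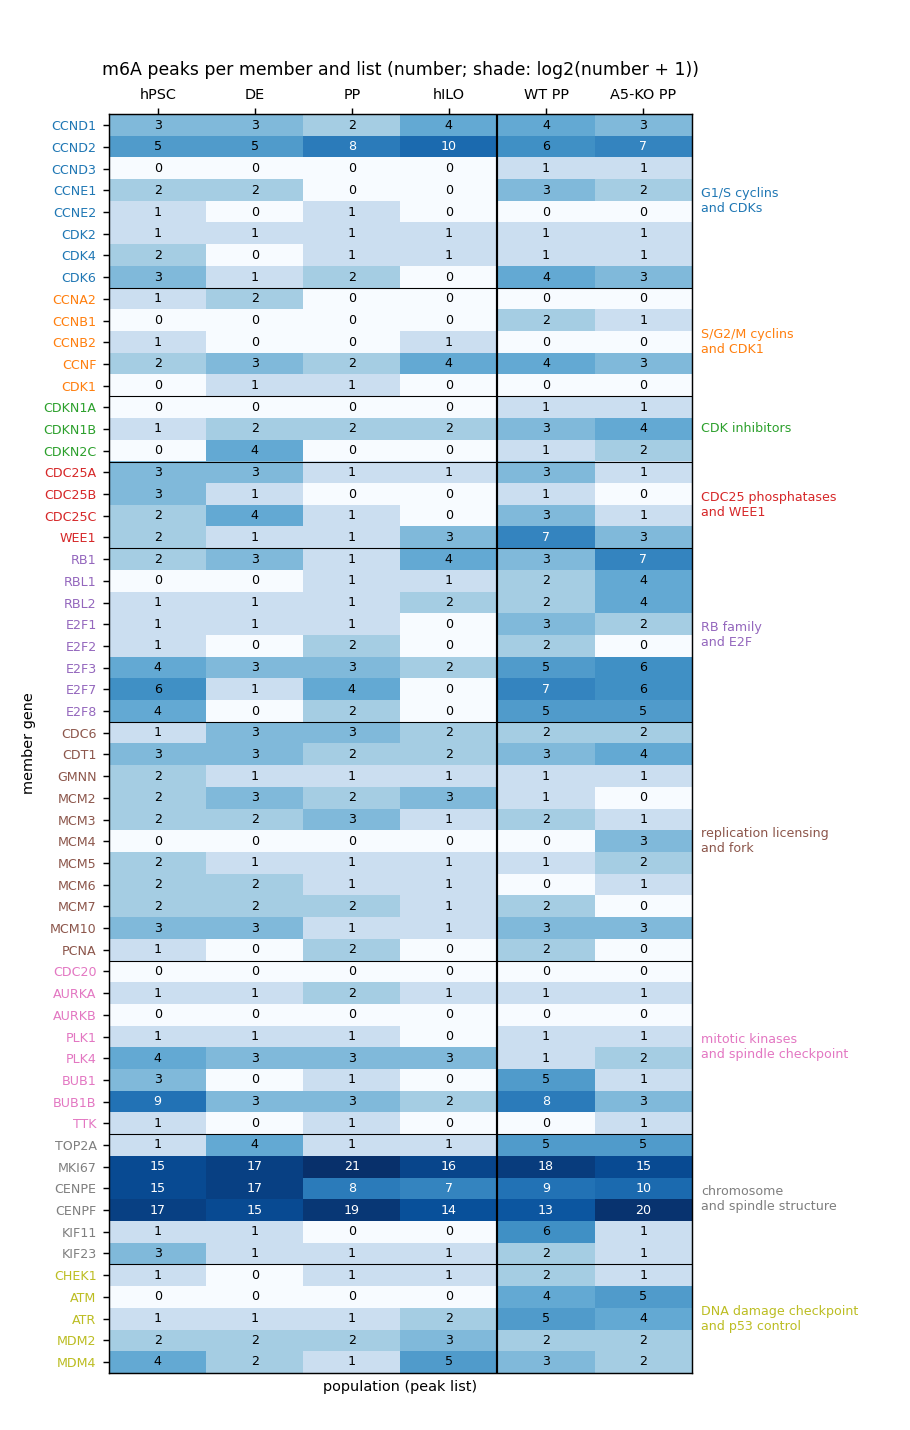
Number of m6A peaks on each of the 58 genes (vertical axis, grouped by role) in each of the 6 populations (horizontal axis), with a line between the batches. MKI67 has 15 to 21 peaks and CENPF 13 to 20 in each list, CDC20 and AURKB none in any list, and the hILO column has a peak on 34 of 58 genes.

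At the deposited threshold, 12 of the 45 genes with a peak in PP had none in hILO, which is 26.7% against 10.1% of the protein-coding genes with a peak in PP. These were CCNE2, CDK1, CDK6, CDC25C, E2F1, E2F2, E2F7, E2F8, PCNA, PLK1, BUB1 and TTK, and CCNB2 was the single gene with a peak in hILO and none in PP, 2.94% of the 34 genes in hILO against 18.7% of protein-coding genes. Among the 12 genes E2F1, E2F2, E2F7 and E2F8 are transcription factors of S-phase genes, so 4 of the 8 genes of the RB and E2F group had no peak in hILO, while E2F3, RB1, RBL1 and RBL2 had at least 1 in both PP and hILO. Of all protein-coding genes 57.7% had a peak in hILO, so 4 of 8 was near the background. The group of Aurora and Polo kinases and checkpoint genes had a peak on 6 of 8 genes in PP and on 3 in hILO. The shares of protein-coding genes were 52.2% and 57.7%. The liver markers given above moved with hILO, and their part in these counts was not tested.

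Of the 11 licensing and fork genes 9 had a peak in all 4 stages, against 41.2% of protein-coding genes. They were CDC6, CDT1, GMNN, MCM2, MCM3, MCM5, MCM6, MCM7 and MCM10. MCM2, an MCM helicase subunit, had 242, 4110, 256 and 2337 input reads along the stages, in 2, 3, 2 and 3 peaks, and the highest log2 enrichment among its peaks was 2.52, 1.99, 0.65 and 1.58. PCNA, the sliding clamp of the replication fork, had 1 peak in hPSC and 2 in PP and none in DE or hILO. MCM4, another helicase subunit, had a peak only in A5-KO PP, where 3 peaks held 498, 138 and 2 input reads. MCM6 had 158, 120 and 25 input reads in its peaks in hPSC, DE and PP, and 1 peak of 7535 in hILO with a log2 enrichment of 1.11. Of the MCM7 peaks 6 of 9 lay outside its Ensembl canonical isoform.

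Among the 8 genes of G1/S cyclins and kinases, the 3 genes CCND1, CCND2 and CDK2 had a peak in every list, against 37.7% of protein-coding genes. CCND1 encodes cyclin D1, which opens the way from G1 into S phase. Its peaks held 1258, 12916, 390 and 1619 input reads along the stages, highest in DE, and 42472 and 19263 in WT PP and A5-KO PP. In DE 1 peak of 11912 reads stood next to 1 of 78 reads in the same 3′UTR. At the 3′UTR stretch chr11:69651464-69651638, covered in all lists, the log2 enrichment was 2.69, 1.80, 1.95 and 0.76 from hPSC to hILO, so hPSC was highest and hILO lowest, and 3.15 and 3.11 in WT PP and A5-KO PP. For CCND2 24 of 41 peaks lay outside its canonical isoform, in part over a neighbouring gene, so its totals are uncertain. CDK6, the partner kinase of the D cyclins, had 334, 630 and 342 input reads in its peaks in hPSC, DE and PP, no peak in hILO, and 992 and 1225 in WT PP and A5-KO PP.

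Of the 5 genes for the cyclins of S, G2 and M phase and their kinase CDK1, only CCNF had a peak in all 6 lists. Of protein-coding genes 37.7% had. CDK1, the kinase of mitotic entry, had 1 peak in DE, whose 4061 input reads gave a log2 enrichment of 1.83 ± 0.028 as counting error, 1 in PP with 4912 reads and 1.45 ± 0.024, and none in the other 4 lists. The DE and PP peaks of CDK1 were in its coding sequence and began 25 nt apart. CCNB1, cyclin B1, had a peak only in WT PP and A5-KO PP, CCNA2, cyclin A2, only in hPSC and DE, and CCNB2, cyclin B2, only in hPSC and hILO, with 495 and 308 input reads.

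The CDK inhibitors had few peaks in the stages. CDKN1A encodes p21, the inhibitor induced by p53. It had no peak in hPSC, DE, PP or hILO, and 1 peak each in the second batch. In WT PP this peak lay in the 3′UTR at chr6:36686167-36686341 and reached a log2 enrichment of 4.41 ± 0.012 on 18456 input reads. In A5-KO PP it lay in the coding sequence between 36682722 and 36684112, over 25 exonic nt, with 3749 input reads and 4.70 ± 0.026, so the CDKN1A peaks of the 2 lists did not overlap. CDKN1B, which encodes p27, had a peak in all 6 lists, with 13, 33, 17 and 520 input reads in hPSC, DE, PP and hILO and 1553 and 1424 in WT PP and A5-KO PP. CDKN2C, which encodes p18, had a peak among the stages only in DE, where 4 peaks held 693 input reads.

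WEE1, which holds CDK1 inactive, had 199, 356, 9 and 8884 input reads in its peaks along the stages, and the second batch gave 4539 for WT PP and 372 for A5-KO PP. Of its 17 peaks 4 lay outside the canonical isoform. The hILO value rested on 1 3′UTR peak of 7903 reads with a log2 enrichment of 1.25. RB1 had 180, 364, 105 and 968 input reads along the stages, and its coding stretch in exon 17, chr13:48381345-48381443, had a log2 enrichment of 1.56, 1.90, 1.61, 1.32, 2.70 and 1.76 from hPSC to A5-KO PP. TOP2A, the topoisomerase that untangles replicated chromosomes, had a coding peak in each stage, and the deepest of them had a log2 enrichment of 1.84, 1.43, 1.54 and 1.85 in stage order.

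CDC25A, CDC25B and CDC25C, the phosphatases that switch CDKs on, all had a peak in hPSC and DE, CDC25B had none in PP or hILO, and CDC25C none in hILO. The CDC25A peaks held 736, 472, 231 and 2148 input reads along the stages and 425 and 102 in WT PP and A5-KO PP, and the hILO reads came from a single 3′UTR peak. The CDC25C peaks held 148, 197 and 61 input reads in hPSC, DE and PP, and 5037 and 572 in WT PP and A5-KO PP.

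E2F3, the E2F with a peak in every list, held 373, 538, 1312 and 839 input reads along the stages and 1291 and 743 in WT PP and A5-KO PP. At chr6:20490900-20491074 in its 3′UTR the log2 enrichment was 1.56, 1.30, 1.93 and 0.64 along the stages, lowest in hILO, and 5.62 and 4.54 in the second batch. E2F7 and E2F8, the repressive E2Fs, had 6 and 4 peaks in hPSC, 1 and 0 in DE, 4 and 2 in PP and none in hILO. They had 7 and 5 peaks in WT PP, against 6 and 5 with ALKBH5 lost. RBL1, which encodes the RB relative p107, had a peak in PP and hILO among the stages, with 47 and 1052 input reads.

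Of the spindle checkpoint genes, BUB1B had a peak in every list and BUB1 and TTK in hPSC and PP but neither DE nor hILO. The BUB1 peaks held 688 input reads in hPSC and 49 in PP. BUB1B had 9, 3, 3 and 2 peaks along the stages, but 14 of its 28 peaks over the 6 lists lay outside its canonical isoform, where a neighbouring gene overlaps. PLK4 held 574, 189, 798 and 198 input reads along the stages. Its peaks of the second batch held 24 (WT PP) and 46 (A5-KO PP).

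ATR, the kinase that senses stalled forks, had 1 or 2 peaks in each stage, with 146, 33, 11 and 104 input reads, and 5 and 4 peaks with 1167 and 724 input reads in WT PP and A5-KO PP. ATM, the kinase that answers double-strand breaks, had no peak in the stages and 4 and 5 peaks with 774 and 341 input reads in the second batch. MDM4 held 277, 53, 610 and 3502 input reads along the stages.

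The genes with no peak in any list were CDC20, the activator of the anaphase-promoting complex, and AURKB, the kinase of chromosome segregation. The lists hold no reads outside peaks, so a gene without methylation and a gene with too few reads cannot be told apart.

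MKI67, CENPE and CENPF, which encode proteins of the mitotic chromosome surface or the kinetochore, held 31.3%, 37.7%, 39.3% and 35.2% of the peaks of the 58 genes along the stages, and 22.7% and 28.1% in WT PP and A5-KO PP. MKI67 had 15, 17, 21, 16, 18 and 15 peaks from hPSC to A5-KO PP, CENPF 17, 15, 19, 14, 13 and 20, and CENPE 15, 17, 8, 7, 9 and 10. Exon 13 of MKI67, at chr10:128102579-128109423, is a coding exon of 6845 nt, the longest among the 58 genes, whose median longest coding exon is 261 nt. It held 11, 12, 12, 11, 13 and 12 of the MKI67 peaks. The second longest was exon 12 of CENPF at 3404 nt, which held 4, 6, 7, 5, 3 and 6 of the CENPF peaks, and the next was exon 5 of PLK4 at 1021 nt. Across the 58 genes the number of peaks and the length of the canonical isoform had a Spearman correlation between 0.34 in DE and 0.66 in A5-KO PP, and with the length of the longest coding exon a lower one in every list, between 0.19 in DE and 0.45 in A5-KO PP. These are descriptions over genes that share libraries.

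**Figure D2:**
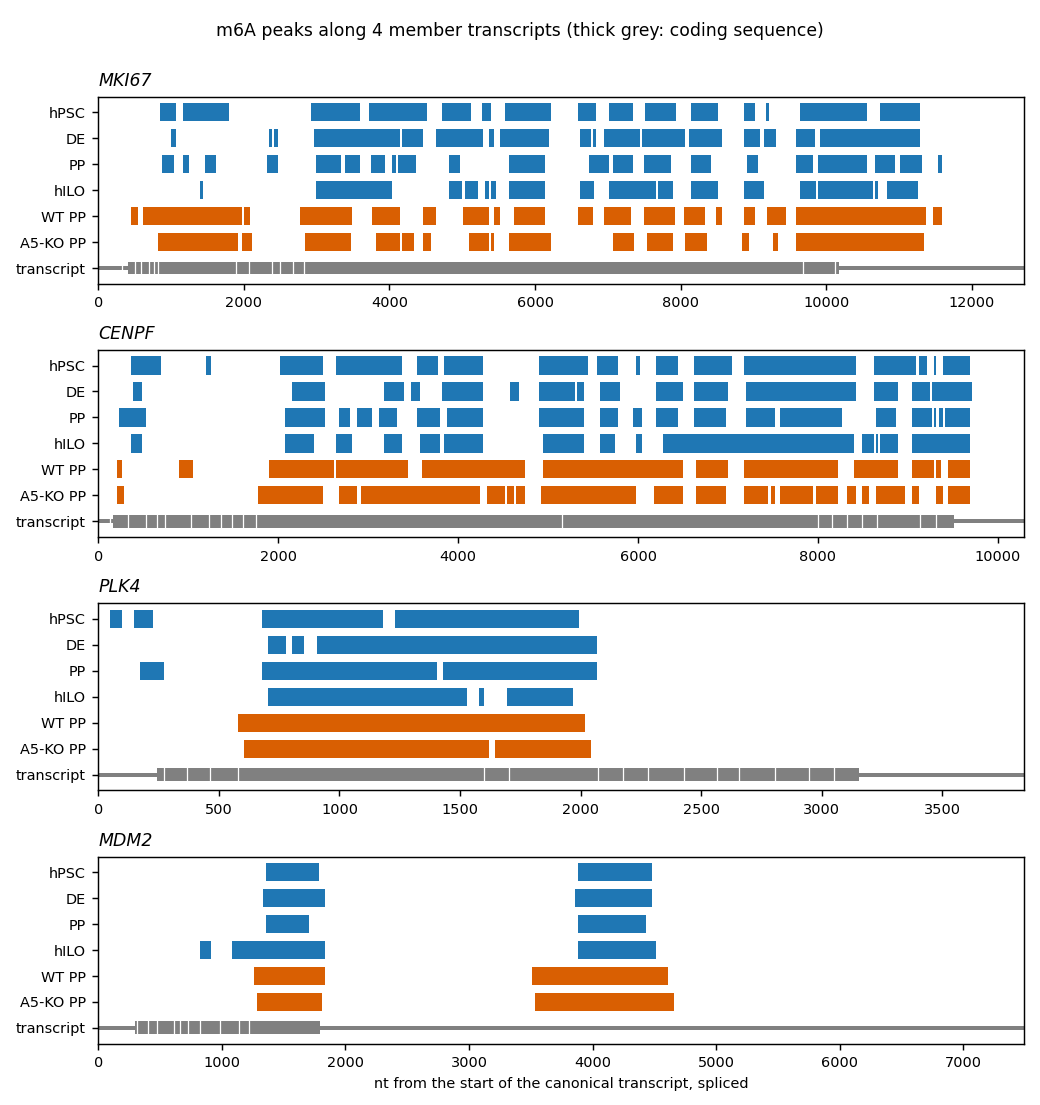
Peaks along the spliced transcripts of MKI67, CENPF, PLK4 and MDM2 (horizontal axis, nucleotides from the transcript start), 1 line for each population, in blue for the 4 stages and orange for WT PP and A5-KO PP. Coding exon 13 of MKI67 holds 11 to 13 of its peaks in each of the 6 lists, and MDM2 peaks sit at the end of the coding sequence and in the 3′UTR.

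The coding share of the peaks rested on these 3 genes. Peak midpoints fell in the coding sequence for 64.0%, 66.7%, 67.5%, 69.4%, 62.5% and 69.5% of the peaks from hPSC to A5-KO PP, against 56.5%, 54.7%, 59.7%, 57.7%, 53% and 60.0% of all peaks. Without MKI67, CENPE and CENPF the shares were 48.3%, 47.3%, 51.5%, 55.7%, 53.3% and 58.5%, and only in WT PP were they not below those of all peaks. The 3′UTR held 26.5%, 28.5%, 24.6%, 28.6%, 33.1% and 26.5% of the peaks of the 58 genes, against 36.4%, 40.5%, 34.2%, 38.3%, 39.9% and 33.0% of all peaks. Without MKI67, CENPE and CENPF this order turned in every list, with 37.1%, 44.6%, 34.8%, 41.0%, 40.8% and 35.8% in the 3′UTR. Within 200 nt of the stop codon lay 17.6%, 19.5%, 14.9%, 19.4%, 21.9% and 21.2%, against 21.1%, 22.3%, 20.2%, 22.0%, 19.2% and 18.0% of all peaks, so the share was lower than that of all peaks in the 4 stages and higher in the second batch.

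Peaks of the 58 genes were poorer in GC than other peaks, with a median of 42.0% to 45.1% against 46.0% to 50.3%. They held more DRACH motifs and fewer GGAC motifs per kb than all peaks. DRACH occurred 26.4, 28.1, 27.5, 25.7, 24.6 and 26.1 times per kb from hPSC to A5-KO PP, against 22.2, 23.0, 22.7, 22.6, 21.9 and 22.3. GGAC, which is part of a DRACH motif when followed by A, C or T, occurred 4.04, 4.05, 4.04, 3.93, 3.60 and 3.59 times per kb, against 5.30, 4.99, 4.75, 4.41, 4.71 and 4.44. At least 1 DRACH motif was held by 94.0%, 90.8%, 91.0%, 91.4%, 88.6% and 92.5% of the peaks, near the 90.5%, 90.8%, 89.0%, 92.9%, 90.1% and 91.4% of all peaks.

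Peaks of the 58 genes were shared between hPSC and DE and between DE and PP at about the rate of all peaks. To be shared, a peak had to have more than 50% of its exonic bases inside peaks of the other list. Of the DE peaks 61.5% (Wilson 95% interval, 53 to 69.5) were shared with hPSC, against 64.7% of all DE peaks. Of the PP peaks 57.4% (48.5 to 65.8) were shared with DE, against 57.0%, and of the hILO peaks 55.2% (45.7 to 64.4) were shared with PP, against 45.6%. The share of hILO peaks was 42.2% when only peaks with p below 1e-05 were kept in both lists, against 31.0% of all peaks. In the second batch 63.1% (55.4 to 70.2) of the A5-KO PP peaks were shared with WT PP, against 46.8%, and 46.0% (38.8 to 53.4) of the WT PP peaks with A5-KO PP, against 50.0%. Peaks of 1 gene are not independent, so these intervals cover counting only. Over the 6 lists the peaks covered 73690 nt of the 58 genes, of which 26222 nt were covered in 1 list only and 12058 nt, 16.4%, in all 6. The latter formed 73 stretches on 17 genes, 20 of them on CENPF and 15 on MKI67.

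Where both lists gave 50 input reads or more, shared peaks were compared in log2 enrichment, and a difference of at least 1, the fold the study used, was counted. Each pair set a peak of the second list against the peak of the first list that shared most bases with it. A broad peak of the first list could thus enter several pairs, so the pairs are not separate observations. From hPSC to DE the median difference over 53 pairs on 21 genes was -0.13, against -0.11 over 11250 pairs of all genes. In 1 pair it was at least 1 higher and in 1 at least 1 lower, 1.89% each, against 2.20% and 3.88%. The higher pair was on CCNE1, cyclin E1, whose coding peak went from 1.11 to 2.22 on 546 and 677 input reads, a difference of 1.11 ± 0.091 (counting error). The hPSC peak of this pair held no DRACH motif. The lower pair was on MCM3, from 1.76 to 0.74 on 58 and 80 input reads, a difference of -1.02 ± 0.29.

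From DE to PP the median difference over 54 pairs on 19 genes was -0.50, against -0.15 over 9081 pairs, and the log2 enrichment was lower in PP at 43 of the 54. Of these 43 pairs, MKI67 gave 15 and CENPF 12. The share of all pairs that were lower is not given here, and their median was itself negative. At least 1 higher were 2 pairs and at least 1 lower 2 pairs, 3.70% each, against 4.24% and 6.32%. The 3′UTR peak of CCNF, cyclin F, went from 1.36 to 2.93 (difference 1.57 ± 0.21), and the coding peak of MDM2 from 2.07 to 3.19 (1.12 ± 0.12). The 3′UTR peak of MCM5 went from 1.90 to 0.65 (-1.25 ± 0.19) and a coding peak of MKI67 from 2.12 to 1.05 (-1.07 ± 0.23). Counted once per gene, the median of 19 genes was -0.33 against -0.15, and 14 of the 19 were lower, with no such share over all genes beside it.

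From PP to hILO the median difference over 47 pairs on 17 genes was 0.14, against -0.10 over 9222 pairs. No pair was at least 1 higher and 3 were at least 1 lower, 6.38%, against 3.05% and 9.41%. The 3 were a 3′UTR peak of E2F3 from 1.93 to 0.64 (-1.29 ± 0.20), a coding peak of MDM4 from 2.49 to 1.28 (-1.21 ± 0.11) and the 3′UTR peak of CCND1 from 1.95 to 0.76 (-1.19 ± 0.14). E2F3 is an E2F activator and MDM4 a partner of MDM2. Counted once per gene, the median of 17 genes was -0.05 against -0.10. The share of pairs past 1 was near or below the background in all 3 steps, while the median from DE to PP was lower than that of all pairs and equal to their lower quartile of -0.50. The 54 other genes of the pathways had medians of 0.07, 0.18 and -0.05 over 34, 32 and 28 pairs in the 3 steps, and so did not share the lower median from DE to PP.

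**Figure D3:**
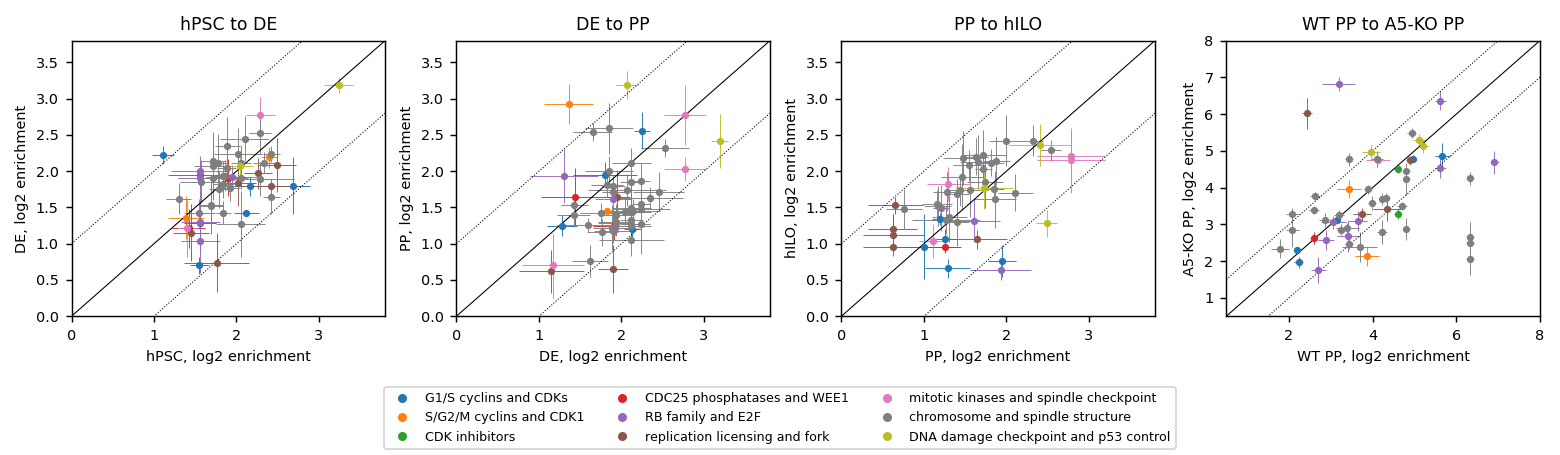
Log2 enrichment of each shared peak of the 58 genes meeting the minimum of 50 input reads in both lists, earlier population on the horizontal axis and later on the vertical axis, coloured by role, with bars of the 95% counting interval and dotted lines at a difference of 1. In the 3 stage steps the points stay near the diagonal, with 2, 4 and 3 of 53, 54 and 47 pairs past the dotted lines, and from WT PP to A5-KO PP they spread, with 18 of 54 past them.

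The input read density at the same peaks moved far more than the enrichment. Input read density was taken as input reads per kb of exonic peak, scaled to the list's total of input reads in peaks. From hPSC to DE it was at least 1 lower on the log2 scale at 31 of 53 pairs and at least 1 higher at 5, 58.5% and 9.43%, against 23.2% lower and 23.2% higher over all pairs. From DE to PP it was at least 1 higher at 39 of 54 pairs and lower at 2, 72.2% and 3.70%, against 46.1% and 13.7%. From PP to hILO it was at least 1 lower at 35 of 47 pairs and higher at 5, 74.5% and 10.6%, against 51.4% and 13.8%. The median log2 ratio was -1.21, 1.92 and -2.17 for the 3 steps, against -0.04, 0.85 and -1.04.

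These counts rested largely on MKI67 and CENPF. The chromosome and spindle genes gave 22 of their 27 pairs at least 1 lower in DE, 32 of 35 at least 1 higher in PP and 24 of 26 at least 1 lower in hILO. The replication genes gave 4 of 7 at least 1 lower and 2 at least 1 higher in DE, 1 of 3 at least 1 lower and 0 higher in PP, and 2 of 5 at least 1 higher and 0 lower in hILO. In MKI67 the density was lower in DE than in hPSC at 12 of 12 pairs, higher in PP than in DE at 14 of 16 and lower in hILO than in PP at 10 of 11, with a median log2 ratio of -2.00, 2.16 and -2.45. In CENPF this held at 9 of 9, 12 of 12 and 13 of 13 pairs, with -2.07, 2.94 and -3.35. Density divides the reads by peak length, and the peaks of a pair could differ in length. A DE peak of MKI67 with 200 input reads stood against a shorter PP peak with 189, at densities of 13.5 and 541. Their log2 ratio was 5.32. The same DE peak entered several of the MKI67 pairs. How much of these ratios came from peak length was not tested. Over the same steps the median difference in log2 enrichment was 0.02, -0.64 and 0.30 for MKI67 and 0.08, -0.33 and 0.26 for CENPF. Counted once per gene, 15 of 21 genes were lower in DE, 15 of 19 higher in PP and 12 of 17 lower in hILO, 71.4%, 78.9% and 70.6% against 49.9%, 72.9% and 76.4% of all genes. Beyond the first step the shares of these 19 and 17 genes were thus nearer those of all genes. The gene medians were -0.82, 1.16 and -1.40, against 0.00, 0.82 and -1.03 over all genes.

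Input reads of neighbouring peaks differed widely within a gene, which limits their reading as abundance. Between peaks of the 58 genes under 200 nt apart the density differed by a median of 1.77-, 1.68-, 2.04- and 6.41-fold along the stages and 6.11- and 6.35-fold in WT PP and A5-KO PP, against 2.37-, 2.29-, 2.94-, 2.96-, 4.89- and 4.41-fold over all genes. In PP a CCND2 peak of 18935 reads stood beside 1 of 125 reads.

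**Figure D4:**
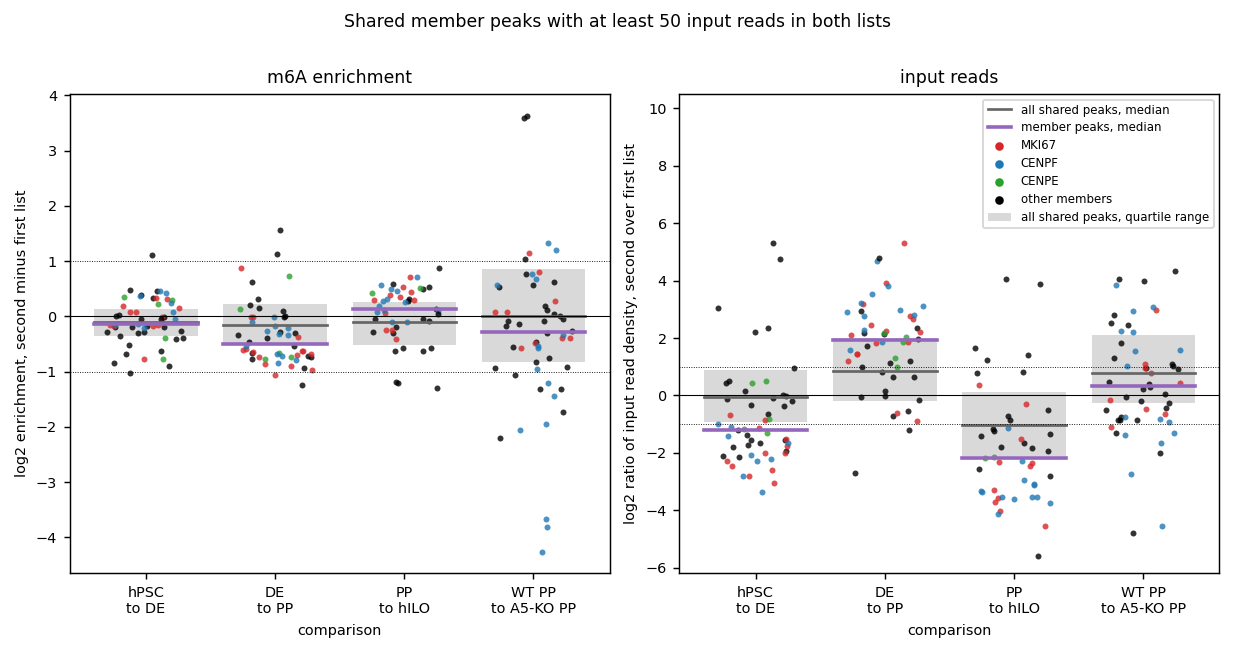
Difference between populations in log2 enrichment (left) and in log2 input density (right) of each shared peak of the 58 genes meeting the minimum of 50 input reads in both lists, for the 4 comparisons on the horizontal axis, MKI67 in red, CENPF in blue, CENPE in green and other genes in black, with the quartiles of all shared peaks as a grey box and medians as lines. Enrichment differences of the stage steps centre between -0.50 and 0.14, while input density centres at -1.21, 1.92 and -2.17.

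In the second batch the differences in enrichment of shared peaks ran from -4.26 to 3.63. From WT PP to A5-KO PP the median difference over 54 pairs on 21 genes was -0.29, against 0.00 over 9263 pairs and -0.05 over 27 pairs of the 54 other genes. At least 1 higher in A5-KO PP were 6 pairs, 11.1%, and at least 1 lower 12, 22.2%, against 22.7% and 21.4% of all pairs. Of the 12 lower pairs 8 were on the chromosome and spindle genes, 7 of them on CENPF. At CENPF the differences ran from -4.26 to 1.33 over 16 pairs, and 4 of the lower pairs set 1 WT PP peak, with a log2 enrichment of 6.32 on 941 input reads, against 4 separate A5-KO PP peaks. When both peaks had to overlap by more than 50% of their length, there were 4 lower and 4 higher pairs. With no minimum of input reads 33 pairs were higher and 21 lower of 101, 32.7% and 20.8% against 38% and 28.9% of all pairs, and 14 of the 101 had no input read in a list.

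The highest differences were on RBL2 and MCM10. The 3′UTR peak of RBL2, a relative of RB1, went from 3.19 to 6.82 (3.63 ± 0.23) on 83 and 219 input reads, and a coding peak of MCM10, a replication initiation factor, from 2.43 to 6.02 (3.59 ± 0.22) on 1498 and 51 input reads. The 3′UTR peak of RB1 was lower in A5-KO PP, at 4.69 against 6.91 (-2.21 ± 0.17). MDM2 was nearly level in its coding peak, at 5.11 and 5.29, and higher in its 3′UTR peak, at 3.95 and 4.98 (1.03 ± 0.16). CCND1 was level in its 3′UTR peak, at 3.15 and 3.11 on 29678 and 16115 input reads. Across the 21 genes, 8 were higher by their median and 13 lower, with a median of -0.14 against 0.01 over all genes. The share of all genes that were lower is not given here.

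Input density was at least 1 higher in A5-KO PP at 20 of the 54 pairs and at least 1 lower at 9, 37.0% and 16.7%, against 44.7% and 13.6%. This balance depended on the scaling. With the median of all pairs subtracted, 13 pairs were higher and 21 lower, 24.1% and 38.9% against 29.7% and 25.8%. The lists of this batch also held peaks with no input read, 12 of 176 in WT PP and 22 of 160 in A5-KO PP, which is 6.82% and 13.8% against 11.5% and 24.6% of all peaks. Their log2 enrichment has no measured denominator, as for the CHEK1 peak of A5-KO PP, and the minimum of 50 input reads kept such peaks out of the differences above. Between WT PP and A5-KO PP, CDC25B, E2F2, MCM2, MCM7 and PCNA had a peak in WT PP only, 10.2% of the 49 genes against 8.10% of coding genes, and MCM4, MCM6 and TTK in A5-KO PP only, 6.38% of the 47 genes against 17.2%. The peaks of MCM6 and TTK in A5-KO PP held 0 and 1 input reads, and those of E2F2 in WT PP held 3. The other genes named held between 73 (CDC25B) and 974 (MCM7).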

How the data were processed

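The lists covered 6 populations in 2 batches, with 2 IP and 2 input libraries each. The authors used fastp for trimming and HISAT2 for alignment to GRCh38, called peaks on all libraries of a population together with exomePeak2, and deposited 1 list per population. The deposited read counts of IP and input are pooled over libraries, and whether they are sums or means is not given in the sources used here. The deposited log2 enrichment is the estimate of exomePeak2, at least 0.585 in every list. The deposited p-values reached an adjusted p of 0.05, whereas the methods name p below 1e-05. Columns of the p-values were used only for an alternative threshold.

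Intronic bases were removed from each peak with GENCODE 44, which was possible for 99.1% of peaks. Regions came from the isoform with the longest coding sequence, exon numbers from the Ensembl canonical isoform, and sequence from the GRCh38 genome. A peak counted as shared when over 50% of its exonic length on its strand was covered by the other list. Differences used pairs in which neither peak had under 50 input reads. Counting errors came from the IP and input counts with 0.5 added to each, and assume that the counts are sums. PCR copies are not independent molecules. Input density was scaled to the input reads in all peaks, and intervals of shares are Wilson intervals at 95%.

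Of the 843 peaks, 113 were assigned to more than 1 gene. Genes were named by rule, as the 3 with the most input reads in each role group, the 3 with most peaks, those without a peak or with a peak in 1 list, the 3 largest rises and falls in each comparison, and a fixed set of 13. Others, such as CDK2, CDT1, ATM and those in lists of genes with and without peaks, were chosen after their values were seen. The members, roles and gene lists were chosen with earlier results of these data known. The scripts were tested on simulated data. Centring enrichment differences within GC bins, and limiting these differences to peaks of a single gene, were added after the data were seen. The use of the canonical isoform was also added then. Counting genes with a peak from peaks of a single gene was not a late addition. Peaks of different batches were not paired. Where values of both batches stand side by side, batch and population cannot be told apart. Python 3.11.15, numpy 2.4.6, scipy 1.17.1, pandas 2.3.3, pysam 0.24.0 and matplotlib 3.10.9 were used.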

Additional observations from a re-analysis of the deposited data

How the results depend on the processing

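No paired analysis was possible because each list pools its libraries, and leaving out a replicate and a replicate block were not run for the same reason. Of 134 alternative values, 93 stayed within 1.5 times the reported count, or within the 95% interval of the reported share, and 41 moved beyond. The former include changes that altered which stage was lowest in genes with a peak. The overlap rule moved the shared shares most. With any overlap the share of DE, PP and hILO peaks found in the stage before was 73.1%, 66.4% and 64.8%, that of A5-KO PP peaks found in WT PP 71.2% and that of WT PP peaks found in A5-KO PP 58.5%, and with reciprocal overlap the 5 shares were 41.5%, 35.2%, 40.0%, 41.9% and 38.1%. Shares of all peaks under these other rules are not given, so whether hILO and A5-KO PP stayed above all peaks is not shown. With p below 1e-05 in both lists hILO from PP was 42.2%, against 31.0% of all peaks. An IP/input ratio of at least 3 left 19 genes in hILO. Counting GGAC in place of DRACH left 52.7%, 50.0%, 45.9%, 54.3%, 49.4% and 50.0% of peaks with a motif from hPSC to A5-KO PP, against 57.7%, 54.5%, 51.3%, 55.8%, 56.7% and 53.6% of all peaks.

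Pairs past a log2 enrichment difference of 1 moved as follows. With no minimum of input reads they were 2 higher and 2 lower from hPSC to DE, 5 lower from DE to PP, 1 higher from PP to hILO, and 33 higher and 21 lower from WT PP to A5-KO PP (38% and 28.9% of all pairs), where 14 of the 101 pairs had no input read in a list and so no measured denominator. With the centred log2 ratio of counts they were 0 lower from hPSC to DE, 1 lower from DE to PP, and 1 higher and 1 lower from PP to hILO. Centring within GC bins left 0 lower from hPSC to DE and 0 lower from DE to PP, peaks of a single gene left 1 higher from DE to PP, and reciprocal overlap left 4 lower beside 4 higher from WT PP to A5-KO PP. For input density, scaling to the median pair gave 7 lower from DE to PP, 8 higher from PP to hILO, and 13 higher and 21 lower from WT PP to A5-KO PP, 24.1% and 38.9% against 29.7% and 25.8% of all pairs. This scaling subtracts the median of all pairs from every pair. With no minimum of input reads the counts were 9 higher from hPSC to DE, 4 lower from DE to PP, 11 higher from PP to hILO, and 37 higher and 19 lower from WT PP to A5-KO PP. The cause of these moves was not tested.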
